A study of Astragalus chrysochlorus with 2 samples.

Results

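The 6 unigenes of ethylene synthesis and response in callus of Astragalus chrysochlorus are 2 1-aminocyclopropane-1-carboxylate (ACC) oxidases, CL3188.Contig2_All and Unigene25767_All, a protein ETHYLENE INSENSITIVE 3-like (EIN3-like), Unigene26078_All, and 3 unigenes named as ethylene response factors (ERFs), which are Unigene39754_All, Unigene25933_All and Unigene3986_All. They were taken by identifier, 6 of the 82566 unigenes in the table, and all 6 were found in it. Their names are the best protein matches in other species, and a supplementary list of the study pairs them with 972 of the unigenes. That list holds only unigenes whose FPKM stood at least 4-fold apart (a log2 ratio of 2 either way) in these same libraries, so the 6 were chosen by the difference described here. Their differences are given as a description, with no test.

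Ethylene is a gaseous plant hormone that acts in stress responses, senescence and growth. ACC synthase turns S-adenosylmethionine into ACC, and ACC oxidase turns ACC into ethylene. Without ethylene the receptors keep the pathway off and EIN3, the transcription factor at its end, is broken down with the help of EIN3-binding F-box proteins. With ethylene EIN3 accumulates and drives genes that include ethylene response factors, which are DNA-binding proteins of the AP2/ERF family. In the names of that family the word ethylene marks the kind of DNA-binding domain, and not every member answers to the hormone.

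Callus is undifferentiated tissue kept in culture, here a line maintained for a long time on Murashige and Skoog (MS) medium with 0.5 mg/L of the auxin analogue 2,4-D. Se-treated callus had in addition 5 mg/L sodium selenate in the medium for 3 weeks, and control callus had none. The study describes replicate cultures of both treatments in several culture dishes, but only 1 RNA library was sequenced per condition. Whether the dishes were pooled is not given in the sources used here. The spread between cultures is therefore not known, and no difference has a replicate check. The Se-treated library held 16.7 M mapped fragments (M, 1000000 fragments) and the control library 16.7 M, so the depth was nearly equal. Fragments of a unigene were scaled by its length and the library total to fragments per kilobase of unigene and per M mapped fragments (FPKM), and a difference is given as a log2 ratio, which is positive where Se-treated callus was higher. Intervals are exact 95% intervals of the counts. They cover counting error only, with each fragment taken as independent, and not the spread between cultures. Several fragments can come from 1 RNA molecule, and the intervals are then too narrow. Less RNA per cell and fewer cells that make it cannot be told apart in whole callus.

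Of the 6 unigenes, 4 had more fragments in Se-treated callus (both ACC oxidases, the EIN3-like unigene and ethylene response factor 8), and 2 had fewer (RAP2-7-like and the ERF matched to Medicago). Together they held 2447 fragments of the Se-treated and 770 of the control library, 0.0147% and 0.0046% of all fragments. Without CL3188.Contig2_All, which alone brought 1555 and 127, the other 5 held 892 and 643. The median log2 ratio of the 6 was 2.34, against 2.18 over the 972 named unigenes, which passed the same threshold, and -0.08 over the 80074 unigenes found in both libraries. All 6 were called, with a false discovery rate (FDR) no higher than 0.001 and a log2 ratio past 2 either way, which is how their names came to be listed. Over all rows 1.59% of the unigenes were called higher at that size and 1.1% lower, and 5.5% and 4.65% at a log2 ratio of 1. Since the same contrast chose the 6, nothing is read from their count. These calls weigh counting error only. Of the 663 named unigenes that were higher, 4 were of this set, and of the 309 named ones that were lower, 2.

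**Figure D1:**
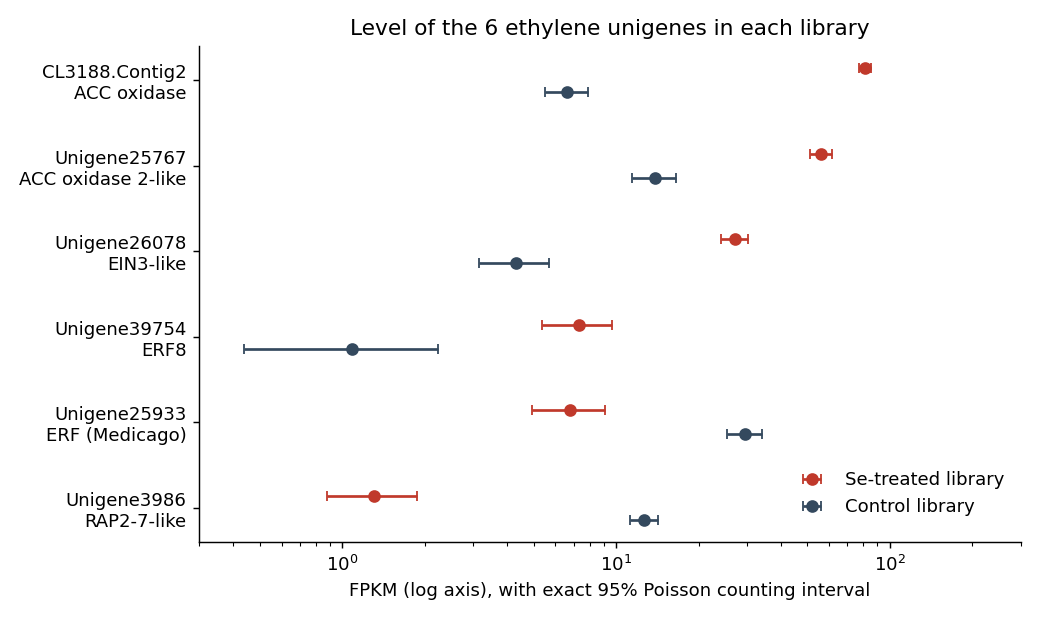
Level of each of the 6 unigenes in FPKM on a log axis, in the Se-treated library (upper point) and the control library (lower point), with the exact 95% Poisson interval of its count. The upper 4 unigenes lie higher in the Se-treated library and the lower 2 lie lower in it. All 6 were chosen by a difference of at least 4-fold between these libraries, so the gaps are a description.

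The order of the levels was different in the 2 libraries. In the Se-treated library it was led by both ACC oxidases, CL3188.Contig2_All with 81.1 FPKM and Unigene25767_All with 56.1, and the EIN3-like unigene came next with 27.1. Unigene39754_All (7.29 FPKM) and Unigene25933_All (6.81 FPKM) could not be ordered there, since the ratio of their levels was 1.07 (0.695 to 1.65), and Unigene3986_All was last with 1.31. In the control library Unigene25933_All led with 29.5 FPKM. Unigene25767_All (13.8 FPKM) and Unigene3986_All (12.6 FPKM) followed, at a ratio of 1.09 (0.872 to 1.36) that did not order them. The lowest levels of the control library were those of CL3188.Contig2_All (6.61), Unigene26078_All (4.30) and Unigene39754_All (1.08). All other neighbours in either order differed beyond counting error.

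ACC oxidase carries out the last step of ethylene synthesis. The contig named ACC oxidase after Medicago truncatula, CL3188.Contig2_All (1148 nt), had 1555 fragments in Se-treated callus and 127 in control callus. This is 81.1 FPKM (77.1 to 85.2) against 6.61 FPKM (5.51 to 7.87). Its log2 ratio of 3.62 (3.35 to 3.89) is a 12.3-fold higher level (10.2 to 14.8). Among the 39148 unigenes with at least 50 fragments over both libraries, 41 had a larger ratio. Its place by level was 1784 of all unigenes in the Se-treated library and 18045 in the control library. Among the 663 named unigenes that were higher it was at place 80 by the size of the ratio and at place 18 by FPKM in Se-treated callus.

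The other ACC oxidase, Unigene25767_All, was matched to an ACC oxidase 2-like protein of tomato (Solanum lycopersicum) and is short, with 502 nt. It had 470 fragments in Se-treated callus and 116 in control callus, that is 56.1 FPKM (51.1 to 61.4) against 13.8 FPKM (11.4 to 16.6). The log2 ratio was 2.02 (1.72 to 2.33), a 4.06-fold higher level (3.31 to 5.02). It is the member nearest to the threshold that chose the names, and its interval reaches below a log2 ratio of 2. At that threshold the nearest unigene inside on the higher side was CL187.Contig4_All (236 and 59 fragments in Se-treated and control callus, 2.002), and the nearest outside was Unigene13164_All (998 and 250, 1.9995). On the lower side they were Unigene29960_All (374 and 1502, -2.003) and Unigene9761_All (17 and 68, -1.998).

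**Figure D2:**
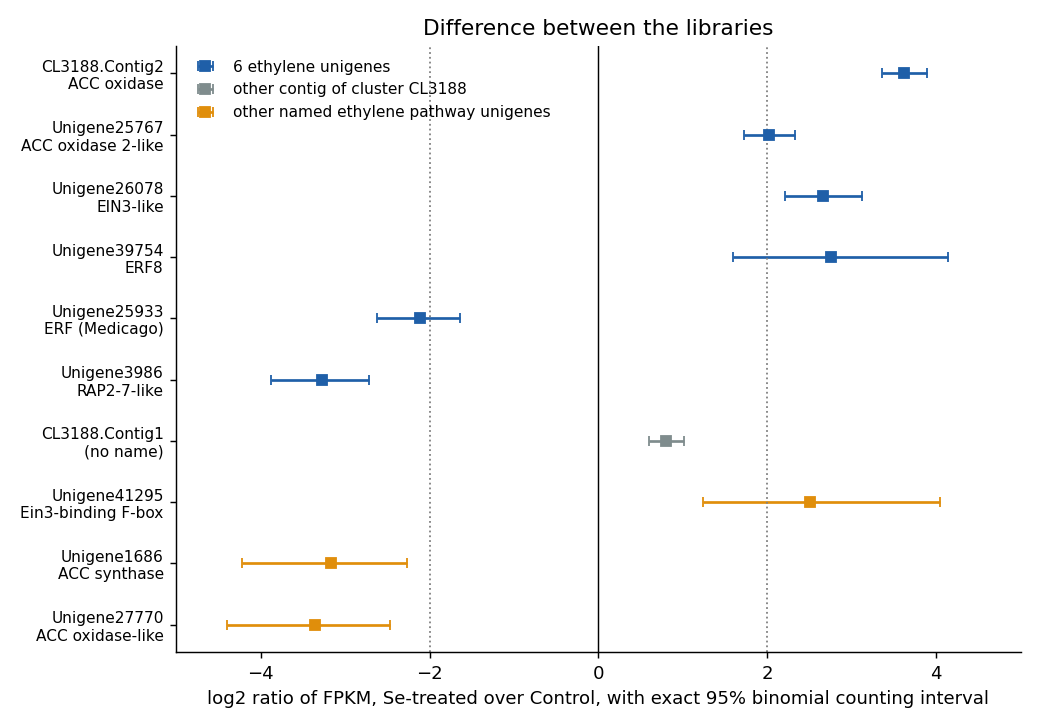
Log2 ratio (Se-treated over control) with its exact 95% binomial counting interval, for the 6 unigenes (blue), the other contig of cluster CL3188 (grey) and the 3 other named unigenes of the ethylene pathway (orange), with dotted lines at a log2 ratio of 2 in size. The intervals of Unigene25767, Unigene39754, Unigene25933 and Unigene41295 cross a dotted line, and that of CL3188.Contig1 lies between 0.60 and 1.01.

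CL3188.Contig2_All is 1 of 2 contigs in its cluster of similar sequences, and contigs of a cluster can share reads. The other contig, CL3188.Contig1_All (1835 nt), has no name in the list, since its difference was too small for it. It had 525 fragments in Se-treated callus and 301 in control callus, 17.1 FPKM (15.7 to 18.7) against 9.80 FPKM (8.73 to 10.98). With a log2 ratio of 0.80 (0.60 to 1.01), or 1.75-fold, it passed the FDR of 0.001 but was not called at a log2 ratio of 1. In the Se-treated library CL3188.Contig2_All took 74.8% of the fragments of the cluster (72.8% to 76.6%), and in the control library 29.7% (25.4% to 34.2%, Clopper-Pearson). In FPKM it stood 4.73 times as high as CL3188.Contig1_All in Se-treated callus and 0.674 times as high in control callus.

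Summed over both contigs the cluster had 2080 fragments in Se-treated and 428 in control callus. Scaled by library total but not by length, this is a log2 ratio of 2.28 (2.13 to 2.44) and a 4.87-fold difference. Summed in FPKM, the log2 ratio was 2.58, or 5.98-fold. The cluster was thus higher in Se-treated callus as a whole, but by less than the contig with the name. The log2 ratios of the 2 contigs differed by 2.81. Among 1125 clusters of 2 contigs with at least 100 fragments each, 3 clusters, with CL3188 among them, differed by that much or more (0.267%), and the median was 0.55. CL3188 was looked at because of the ratio of one of its contigs, so its place is a description. How reads were divided between the contigs was not tested.

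**Figure D3:**
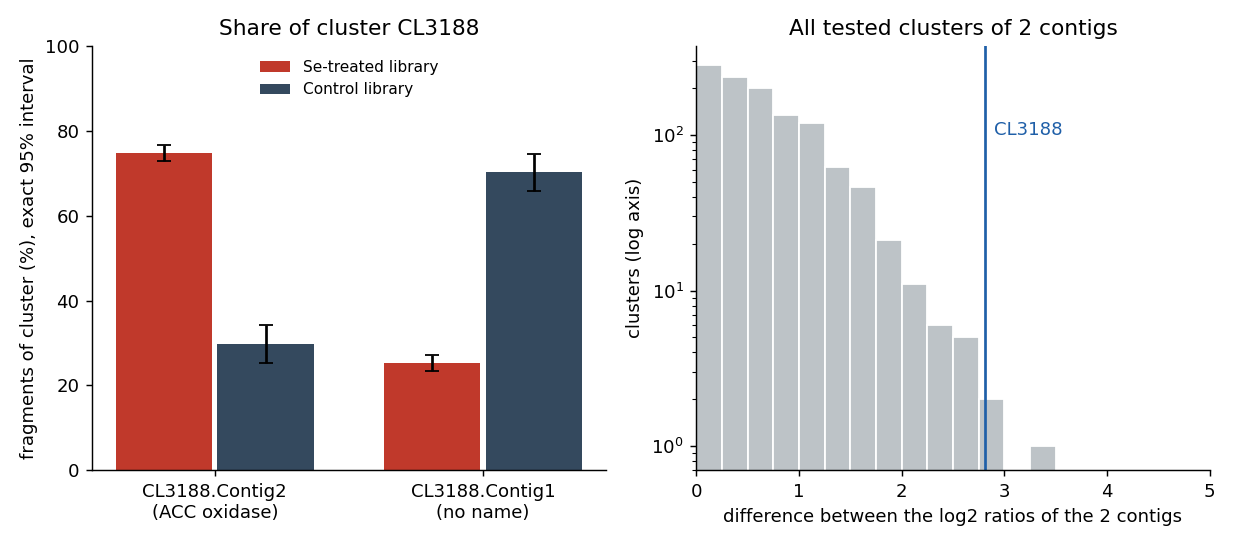
Left, share of the fragments of cluster CL3188 that fell on each of its 2 contigs, in percent with the exact 95% interval, in the Se-treated (red) and control (dark) library, and right, the number of clusters (log axis) by the difference between the log2 ratios of their 2 contigs. CL3188.Contig2 took 74.8% of the fragments in the Se-treated and 29.7% in the control library, and the line marks the difference of 2.81 for CL3188, near the upper end of the 1125 clusters.

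Added up, both ACC oxidases of the set had 137.2 FPKM in Se-treated callus and 20.4 FPKM in control callus. That is 6.72-fold more and a log2 ratio of 2.75. Both were listed for being at least 4-fold higher, so a sum this much higher came with the choice. Another unigene, Unigene27770_All, is named as an ACC oxidase-like protein of Medicago, and the opposite was seen there, with 11 fragments in Se-treated callus and 113 in control callus. Its level was 0.707 FPKM (0.353 to 1.27) against 7.26 FPKM (5.98 to 8.72), a log2 ratio of -3.36 (-4.40 to -2.46). Proteins matched as ACC oxidase-like can be other oxygenases of the same large family, and its substrate is not known from the name. Of the summed FPKM of these 3 unigenes it made up 0.513% in Se-treated and 26.2% in control callus, while CL3188.Contig2_All made up 58.8% and 23.9%. With Unigene27770_All and CL3188.Contig1_All included, the sum was 155.0 FPKM in Se-treated and 37.5 FPKM in control callus, a log2 ratio of 2.05. ACC oxidase unigenes that differed by less carry no name in the list, so neither these sums nor the shares describe the whole family.

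ACC synthase makes the substrate of ACC oxidase. The only unigene named so, Unigene1686_All (866 nt, matched to Medicago), had 11 fragments in Se-treated callus and 99 in control callus. That is 0.761 FPKM (0.380 to 1.36) against 6.83 FPKM (5.55 to 8.32), a log2 ratio of -3.17 (-4.22 to -2.27). The summed level of both ACC oxidases was 180.3 times that of this ACC synthase in Se-treated callus and 2.99 times in control callus. The ACC oxidases were listed for being higher and this ACC synthase for being lower, so the shift of this ratio came with the choice. Its value in Se-treated callus rests on the 11 fragments of the ACC synthase. ACC synthases are encoded by a family of genes in plants, and unigenes of it that differed by less carry no name in the list, so the level of the whole family was not measured here.

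The EIN3-like unigene, Unigene26078_All (668 nt, matched to soybean, Glycine max), had 302 fragments in Se-treated callus and 48 in control callus. The levels were 27.1 FPKM (24.1 to 30.3) and 4.30 FPKM (3.17 to 5.69). The log2 ratio of 2.66 is a 6.30-fold difference (4.64 to 8.73), and the interval lies wholly above the 4-fold of the threshold. Of the unigenes with at least 50 fragments over both libraries 183 had a larger ratio. EIN3 is controlled to a large part by breakdown of the protein, and protein was not measured.

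An EIN3-binding F-box protein, which marks EIN3 for breakdown, was named in Unigene41295_All (495 nt), with 34 fragments in Se-treated callus and 6 in control callus. It had 4.11 FPKM (2.85 to 5.75) against 0.725 FPKM (0.266 to 1.58), a log2 ratio of 2.50 (1.24 to 4.05). The level of the EIN3-like unigene was 6.58 times that of this F-box unigene in Se-treated callus and 5.93 times in control callus. Both unigenes were listed for being at least 4-fold higher in Se-treated callus. Their shared direction came with that choice, and the likeness of these ratios is a description. The folds of the EIN3-like unigene (4.64 to 8.73) and of the F-box unigene (2.36 to 16.5) have overlapping intervals, the second of which is wide because it rests on 6 control fragments.

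**Figure D4:**
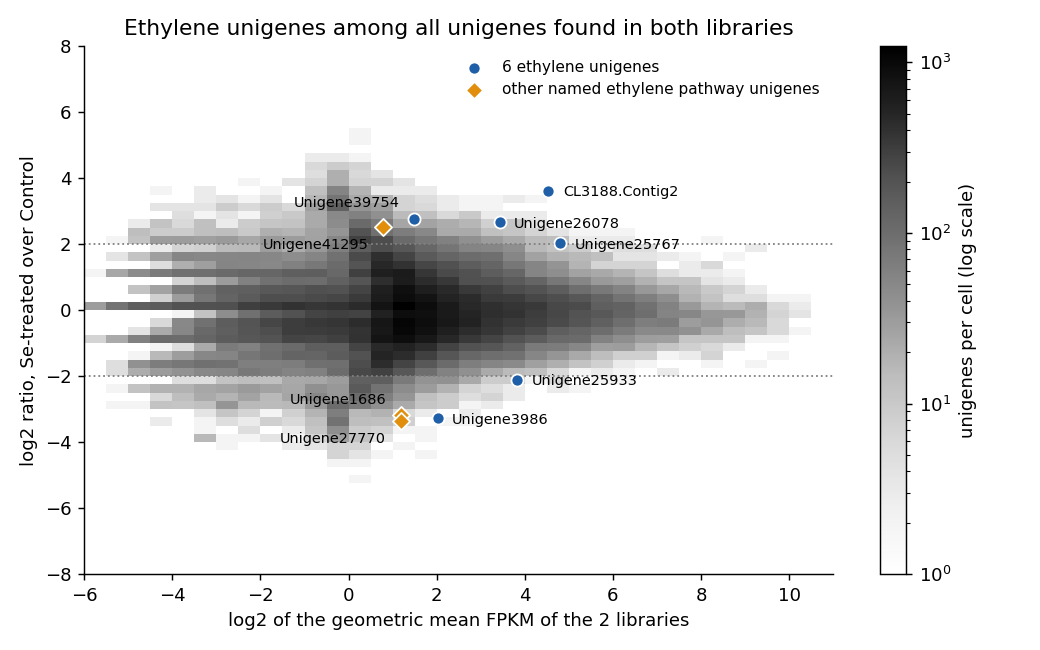
Log2 ratio (Se-treated over control) against the log2 of the geometric mean FPKM of both libraries, for the 80074 unigenes found in both (grey, darker cells hold more unigenes on a log scale), the 6 ethylene unigenes (blue circles) and the 3 other named unigenes of the pathway (orange diamonds). Dotted lines mark a log2 ratio of 2 in size, and CL3188.Contig2, at 3.62, lies above most unigenes of its level.

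The 3 ERF unigenes did not share a direction. RAP2-7-like (Unigene3986_All, 1328 nt, matched to soybean) belongs to the AP2 group of the family, and in Arabidopsis RAP2.7 holds back flowering. It had 29 fragments in Se-treated callus and 281 in control callus, 1.31 FPKM (0.876 to 1.88) against 12.6 FPKM (11.2 to 14.2). The log2 ratio was -3.27 (-3.88 to -2.72), which is 9.67-fold lower (6.59 to 14.7). Of the 39148 unigenes with at least 50 fragments over both libraries, 44 had a ratio further down. By the size of the ratio it was at place 77 of the 309 named unigenes that were lower.

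The ERF matched to Medicago truncatula (Unigene25933_All, 387 nt), also described there as an ethylene-responsive element-binding protein, was the most abundant of the 6 in control callus. It had 44 fragments in Se-treated callus and 191 in control callus, 6.81 FPKM (4.95 to 9.14) against 29.5 FPKM (25.5 to 34.0). Its log2 ratio of -2.12 (-2.62 to -1.64) is 4.33-fold lower (3.11 to 6.16). It was at place 18 of the 309 named lower unigenes by FPKM in control callus but at place 262 by the size of the ratio.

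Ethylene response factor 8 (Unigene39754_All, 386 nt, matched to Medicago sativa) was the least abundant of the 6 in control callus and rests on the fewest fragments, with 47 in Se-treated and 7 in control callus. Its level was 7.29 FPKM (5.36 to 9.69) against 1.08 FPKM (0.436 to 2.23). The log2 ratio of 2.75 (1.59 to 4.14) has the widest interval of the 6, from 3.02-fold to 17.6-fold around the value of 6.73-fold. The 3 ERF unigenes summed to 15.4 FPKM in Se-treated and 43.2 FPKM in control callus, 2.81-fold lower in the Se-treated library. Unigenes of the AP2/ERF family that differed by less carry no name in the list, so this sum is not the level of the family. Within this sum Unigene25933_All made up 44.2% in Se-treated and 68.2% in control callus, Unigene39754_All 47.3% and 2.51%, and Unigene3986_All 8.49% and 29.3%. Without Unigene25933_All the sum was 8.60 FPKM in Se-treated and 13.7 FPKM in control callus, 1.60-fold lower in the Se-treated library. With a coefficient of variation of 0.2 assumed for cultures, neither Unigene39754_All nor Unigene25933_All was called, in a setting that left 375 unigenes called higher and 178 lower at a log2 ratio of 2 over the whole table, against 1311 and 912 with counting error only. The EIN3-like unigene stood at 1.76 times the summed level of these ERF unigenes in Se-treated callus and at 0.0993 times in control callus. All unigenes of this ratio were chosen by their differences here, so its shift is a description.

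Direction followed the number of the unigene in parts of this assembly, which touches Unigene39754_All. Unigenes outside clusters were taken in blocks of 1000 consecutive numbers. In the block that holds Unigene39754_All 95.1% were higher in the Se-treated library and 14.5% were called higher at a log2 ratio of 2, with a median log2 ratio of 1.59 over the block. Over all 45348 unigenes outside clusters 47.8% were higher. Of the 588 in the same block with at least 20 fragments over both libraries, 68 had a larger ratio than Unigene39754_All. Unigene41295_All, the F-box unigene, lies in a block where 89.9% were higher. The part of this pattern in the ratios of both was not tested.

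The other unigenes outside clusters stood in blocks with no such lean. In those of Unigene3986_All, Unigene25933_All with Unigene25767_All, and Unigene26078_All, 49.7%, 44.4% and 46.8% of the unigenes were higher in the Se-treated library. With at least 20 fragments over both libraries, none of the other 964 unigenes in its block had a ratio below that of Unigene3986_All. Of the 932 in the block shared by the 2 others, 6 lay below Unigene25933_All and 9 above Unigene25767_All. Of the 931 around Unigene26078_All, 4 had a larger ratio. The members were chosen by the size of their ratios in this same contrast, so their places within the blocks are a description.

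**Figure D5:**
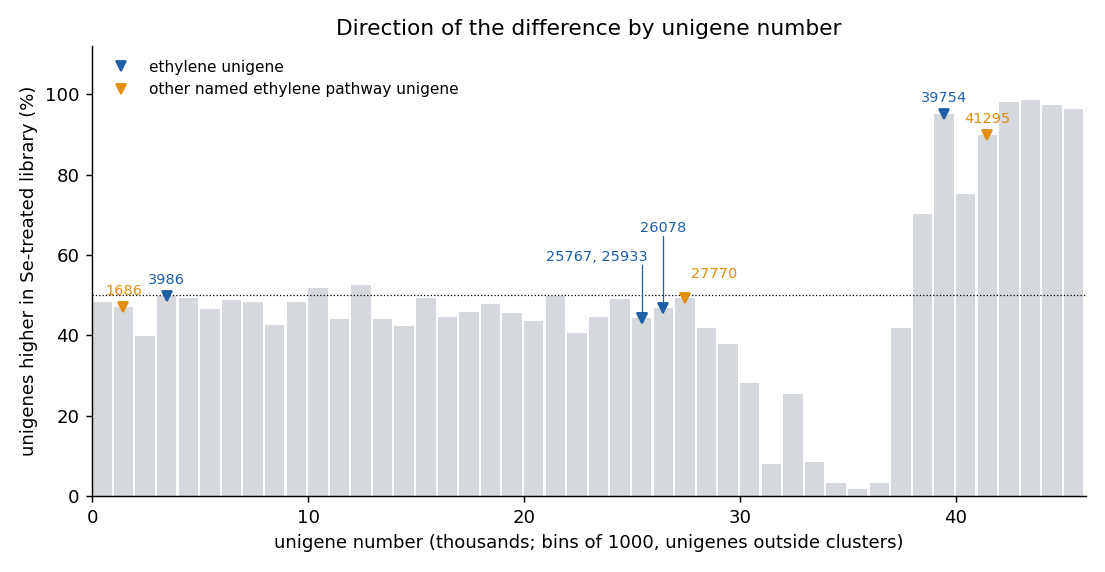
Percent of unigenes outside clusters that were higher in the Se-treated library, in bins of 1000 unigene numbers, with triangles at the bins that hold an ethylene unigene (blue) or another named unigene of the pathway (orange), labelled by number. Unigene39754 and Unigene41295 lie in bins with 95.1% and 89.9%, and the others in bins between 44.4% and 49.7%.

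Lengths differed as well. The unigenes Unigene39754_All, Unigene25933_All, Unigene25767_All and Unigene26078_All, of 386 nt to 668 nt, were shorter than the median unigene of 785 nt, and CL3188.Contig2_All and Unigene3986_All were longer. Whether the short ones are parts of longer transcripts that were assembled elsewhere in the table was not tested.

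In all, the list of names holds 9 unigenes of ethylene synthesis and response, of which 5 were higher in Se-treated callus and 4 lower, with a median log2 ratio of 2.02. The 3 outside the set of 6 are the ACC synthase, the ACC oxidase-like unigene and the F-box unigene, with 56 fragments in Se-treated and 218 in control callus. These 9 had passed the threshold of the list by definition, so the count gives no evidence of a direction. The ethylene receptors and the steps between them and EIN3, the kinase CTR1 and the membrane protein EIN2, were not analysed here.

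For each of the 6, the named unigene with the most similar pair of levels was taken as that at the shortest distance in log2 FPKM over the 2 libraries, among 914 named unigenes found in both. With only 2 libraries this compares 2 levels and is no profile. For CL3188.Contig2_All it was a pyruvate decarboxylase (CL863.Contig2_All, 66.3 FPKM in Se-treated and 8.17 in control callus, distance 0.42). For Unigene25767_All it was an L-lactate dehydrogenase (Unigene11926_All, 58.7 and 13.4 FPKM, distance 0.08). The EIN3-like unigene lay next to a histone deacetylase 6-like protein (CL1257.Contig1_All, 28.3 and 4.50 FPKM, distance 0.09). RAP2-7-like lay next to a UPF0481 protein (CL1884.Contig2_All, 1.37 and 11.6 FPKM, distance 0.14), and Unigene25933_All next to a flavonoid 3-O-galactosyl transferase (CL465.Contig1_All, 6.11 and 26.1 FPKM, distance 0.24). Unigene39754_All lay next to a nuclear pore protein of the Nup98-Nup96 kind (CL1834.Contig4_All, 7.52 and 1.04 FPKM, distance 0.08), whose control level rests on 4 fragments.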

How the data were processed

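Callus RNA was sequenced on Illumina HiSeq as 1 Se-treated and 1 control library. The authors filtered the reads, assembled them with Trinity (release 20130225), TGICL (2.1) and Phrap (23.0) and mapped them to the unigenes with SOAP (2.21). The deposited table gives raw fragment counts, not normalized, the length of each unigene, FPKM, and the authors' own P-value and FDR, whose values are not reported here. The deposited FPKM score has lost its decimal mark in values of 1 or more. All 82566 values of each library equalled the FPKM computed from the fragments, or 10000 times it, within 6e-05 and 0.6, so the computed FPKM was used.

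An FPKM of 0 was set to 0.001. Calls for the whole table came from an Audic-Claverie test (two-sided, upper tail without the observed count) of the fragment counts, adjusted by Benjamini-Hochberg over all unigenes. The sources used here name no test. The form of the upper tail was chosen after seeing the data, because it matched the deposited P-values, so the counts of calls are not independent of the authors' own. The test compares 2 libraries, not the conditions. The thresholds of the study (FDR of at most 0.001, log2 ratio of 1 or 2) were used. The test and intervals were tried on simulated counts that held counting error only. Spread between cultures was not simulated, so false calls from it were not checked. A floor of 3 fragments is 0.229 FPKM in the Se-treated and 0.228 in the control library at median length.

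The 6 unigenes and the pathway list were chosen with earlier results of these data known. Named are the 6, the contigs of CL3188, the 3 other ethylene unigenes and the nearest named unigene of each of the 6. The 4 unigenes at the threshold were picked by value. The alternatives tried were added FPKM, recentring, an exact binomial test, a filter on low counts, an assumed spread between cultures, cluster sums, and, added after seeing the data, an upper tail that holds the observed count. The software was Python 3.11.15, scipy 1.17.1, numpy 2.4.6, pandas 2.3.3, and, for figures, matplotlib 3.10.9.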

Additional observations from a re-analysis of the deposited data

How the results depend on the processing

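No paired analysis was possible because there is 1 library per condition, and none could be left out. None of the alternatives could turn the direction of a unigene this far from a ratio of 1, so direction was not put to a test. All 6 stayed called at a log2 ratio of 2 with the exact binomial test, with at least 10 fragments over both libraries, with recentring (the median log2 ratio of 23264 well-counted unigenes was -0.03), with 0.1 FPKM added and with the other upper tail. With 1 FPKM added, Unigene25767_All (1.95), Unigene25933_All (-1.97), Unigene39754_All (1.99) and the F-box unigene Unigene41295_All (1.57) were under 2. Had cultures varied with a coefficient of variation of 0.2, 4 of the 6 stayed called, and Unigene25933_All, Unigene39754_All and Unigene41295_All did not. There 412 unigenes were called higher and 190 lower at a log2 ratio of 1, and 375 and 178 at 2, against 4539, 3838, 1311 and 912 with counting error only. At 0.4 the calls over the whole table were 0 in each direction at both sizes by this normal approximation. None of the 6 could therefore be called. At an unadjusted p under 0.05 the approximation gave 1932 higher and 1530 lower at a log2 ratio of 2. All 6 were among these, but they were chosen by a log2 ratio past 2 here, so nothing is read from that. The spread between these cultures was not measured, so both values are assumptions. The summed ACC oxidases had a log2 ratio of 2.05 with the other contig of CL3188 and the ACC oxidase-like unigene added, against 2.75. Depth limits Unigene39754_All and Unigene41295_All most, with 7 and 6 control fragments.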
